A study of Canis lupus familiaris with 6 samples.

Results

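Genes of the cell cycle and of DNA replication were followed in healing mandibular bone of beagle dogs. The set was a list of 42 gene symbols, 16 for S phase and 26 for mitosis. Its members were all probe sets annotated to 1 of these symbols alone. Of the 42 genes, 35 had at least 1 such probe set, 76 probe sets in all, among 15112 genes measured. These 35 were the 16 S phase genes and 19 of the mitosis genes. CCNB1, BUB1, MAD2L1, CENPE, KIF20A, CKS2 and MKI67 had no probe set in the table of probe sets and genes and were skipped. Another probe set shared by UBE2C and a second gene was not used.

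The animals were 9 years old, and the mandible had healed for 3 months after premolar extraction. Holes of 4.5 mm diameter and 8 mm length were then drilled. Control holes received no implant (treatment none in the labels). The other holes received beta-TCP, beta-tricalcium phosphate, a resorbable ceramic used as a bone substitute. Cylindrical specimens were taken at 4, 7 and 14 days, which gave 6 groups with 1 Affymetrix canine array each. How many animals were used, and which specimens shared an animal, is not given in the sources used here. A difference between 2 arrays therefore had no replicate check, and no p-value was given for it. In whole specimens, fewer dividing cells and less RNA per dividing cell cannot be told apart.

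A cell that is about to divide first licenses its replication origins, then copies its DNA in S phase, and then builds a spindle that separates the chromosomes in mitosis. Many S phase genes are transcribed under E2F factors, while many mitosis genes are transcribed later through the B-MYB and FOXM1 complexes. Dividing fibroblasts, endothelial cells, osteoprogenitors and leukocytes all express these genes, so their level in a wound is a summed reading of proliferation over cell types.

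Every array was divided by its median over all probe sets, and levels are log2(value + 1) of these divided values. On this scale differences of weakly read genes are understated. Each gene was read on its probe set of highest mean over the arrays. A gene was kept when its mean reached the 40th percentile of probe set means. All 35 members passed, as did 10530 genes in all. Of the member probe sets, 60 of 76 passed. The day 14 columns were deposited on another scale than those of days 4 and 7. The beta-TCP day 14 array stood apart, with Spearman correlations of 0.723 to 0.779 with the other arrays, against 0.832 to 0.905 among the other 5. Results on that array are given below by type of probe set. Of the defining markers of bone, COL1A1 read at least 720 and SPP1 at least 154 times the array median on all 6 arrays. COL1A2 read 670 to 1925 times the median. BGLAP was weak, at 0.157 to 4.95 times the median, as was RUNX2 at 1.29 to 2.02, and SP7 had no probe set. ALPL read 1.79 to 40.2 and IBSP 4.80 to 251 times the median, both lowest on the day 4 control array.

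The members were highest on the beta-TCP array of day 4. There 23 of 35 had their highest value of the 6 arrays, against 10.5% of all kept genes. On the beta-TCP day 14 array 23 of 35 had their lowest value, against 33.8% of all kept genes. The signs over the days were shared by most of the set. With beta-TCP, 23 of 35 members were higher than control at day 4 and lower at both day 7 and day 14, a pattern held by 20.7% of all kept genes. It was seen in 8 of 16 S phase members and 15 of 19 mitosis members. The other 12 members differed from it in various ways. MCM4, UHRF1, CENPF and KIF11 were lower at day 14 alone, and MCM3, MCM5 and MCM7 at day 7 alone. CCNE2 was above control on all 3 days, and PCNA and AURKB were below it on all 3. UBE2C was higher at day 14 alone and CDT1 at day 7 alone. Some of these signs turned with the probe set. On another probe set MCM5 was lower at day 14 (-0.73), and MCM7 was higher at day 7 (0.60) and lower at day 14 (-0.70). CDT1 had the opposite sign on all 3 days on its other probe set.

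**Figure D1:**
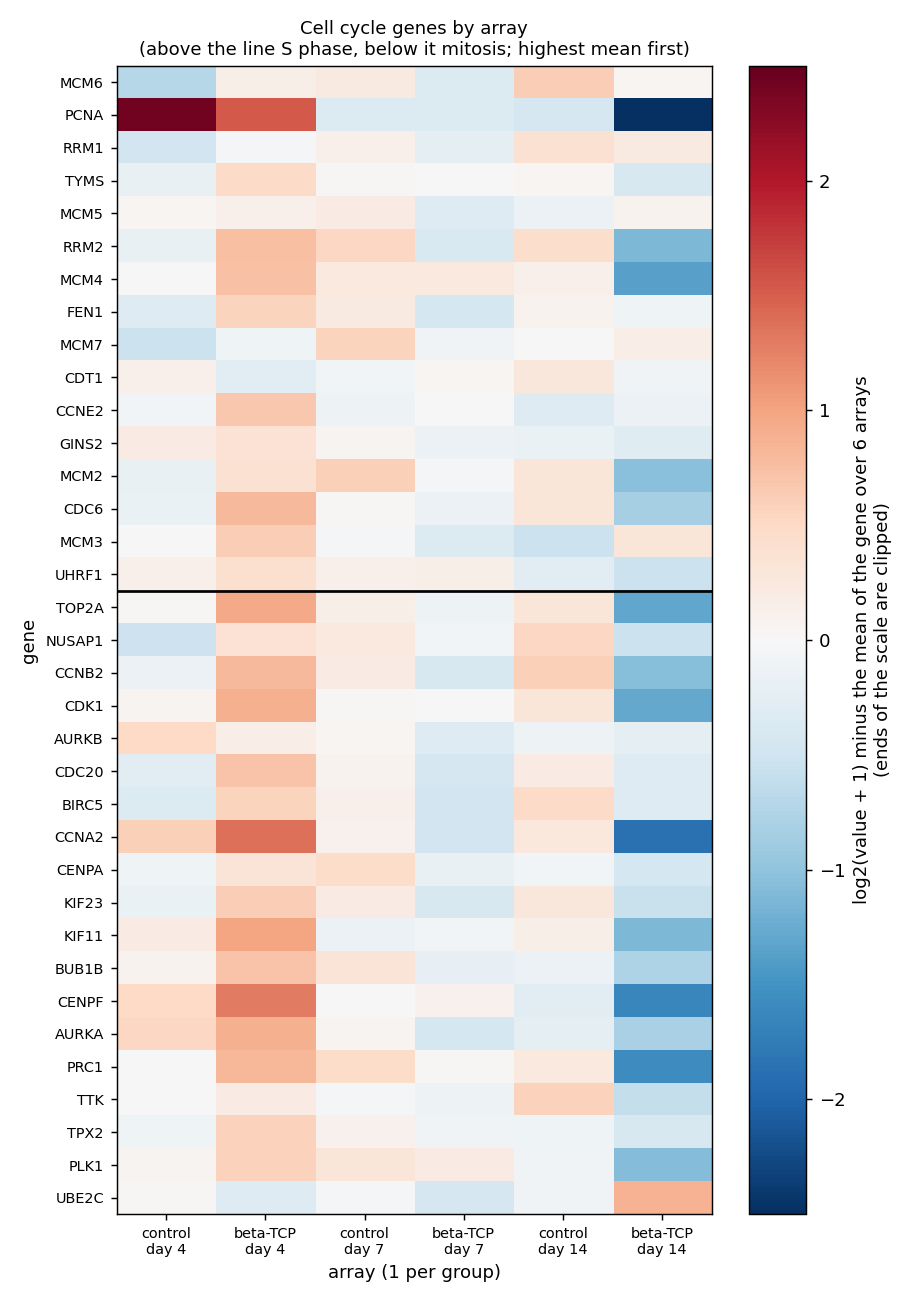
Level of each of the 35 members on the 6 arrays, as log2(value + 1) minus the mean of the gene; rows are genes, columns are arrays, and red is above and blue below the mean. The beta-TCP day 4 column holds the highest value of 23 members and the beta-TCP day 14 column the lowest of 23, while PCNA is highest on both day 4 arrays.

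At day 4, 31 of 35 members were higher with beta-TCP than in the control, against 62.7% of all kept genes. The S phase members had a median difference of 0.58 log2 units (14 of 16 higher) and the mitosis members of 0.78 (17 of 19 higher). The median of all kept genes was 0.17, and 29 of 35 members lay above it. The differences were moderate. None of the 35 members was at least 2-fold higher (4.52% of all kept genes were) and none was at least 2-fold lower (3.1%). The 4 lower members (37.3% of all kept genes were lower) were PCNA (-0.88), the licensing factor CDT1 (-0.40), UBE2C (-0.34) and AURKB (-0.33).

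The highest member was CDC6, a factor that loads the replicative helicase on origins. It read 0.81 on the control and 1.80 on the beta-TCP array at day 4, 1.0 and 0.83 at day 7, and 1.27 and 0.15 at day 14. CDC6 was thus a weakly read gene, highest on the beta-TCP day 4 array and lowest on the beta-TCP day 14 array.

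The replicative helicase, the ring of MCM2 to MCM7 that unwinds DNA at the fork, was higher at day 4 on all 6 of its subunits. Their median was 0.58. MCM6 read 6.01 on the control and 6.88 on the beta-TCP array at day 4, 6.96 and 6.39 at day 7, and 7.35 and 6.78 at day 14. For MCM6, the beta-TCP array was thus above its control at day 4 and below it at days 7 and 14. MCM5 differed least, by 0.068 at day 4, but its other 2 probe sets above the filter gave 0.73 and 0.50. MCM4 differed by 0.74 and MCM3 by 0.61.

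Genes that supply nucleotides were also higher at day 4. RRM2, the regulated subunit of ribonucleotide reductase, read 4.04 on the control and 4.98 on the beta-TCP array at day 4. It read 4.73 and 3.83 at day 7, and 4.66 and 3.10 at day 14. Its differences were therefore 0.94, -0.90 and -1.57, and its day 7 value was the lowest of all members on that day. RRM1, the large subunit, read 4.56 and 5.0 at day 4, 5.16 and 4.81 at day 7, and 5.41 and 5.26 at day 14. TYMS, which makes thymidylate, read 4.78 and 5.44 at day 4, 4.99 and 4.96 at day 7, and 5.01 and 4.57 at day 14. RRM1 and TYMS kept the signs of RRM2 with smaller differences on each day.

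The flap endonuclease FEN1, which processes Okazaki fragments, had differences of 0.89, -0.68 and -0.20 over the 3 days. The cyclin gene CCNE2, which acts at the entry into S phase, read 1.79 and 2.53 at day 4, 1.73 and 1.84 at day 7, and 1.52 and 1.70 at day 14. Its beta-TCP array was above the control each time, most so at day 4. GINS2, of the GINS complex of the active helicase, and UHRF1, which maintains DNA methylation after replication, differed by 0.15 and 0.28 at day 4.

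Mitosis members lay higher as well at day 4. TOP2A, the topoisomerase that untangles replicated chromosomes, read 5.73 on the control and 6.65 on the beta-TCP array at day 4. It read 5.84 and 5.58 at day 7, and 6.0 and 4.40 at day 14. CCNB2, a cyclin of the mitotic kinase, read 3.73 and 4.69, then 4.08 and 3.48, then 4.48 and 2.81. The kinase itself, CDK1, read 3.93 and 4.76 at day 4, 3.89 and 3.86 at day 7, and 4.16 and 2.57 at day 14. For TOP2A, CCNB2 and CDK1, the beta-TCP day 4 array was the highest of the 6 and the beta-TCP day 14 array the lowest. NUSAP1, a spindle microtubule protein, read 3.41 and 4.29 at day 4, 4.19 and 3.86 at day 7, and 4.46 and 3.40 at day 14, so its highest array was the day 14 control.

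The remaining mitosis members at day 4 can be ordered by their roles. Among regulators of mitotic exit and the checkpoint, CDC20, which activates the anaphase-promoting complex, differed by 0.98, and BUB1B by 0.62. BIRC5, the survivin subunit of the chromosomal passenger complex, differed by 0.90. The motor genes KIF11 and KIF23 differed by 0.79 and 0.78, the midzone bundler PRC1 by 0.82 and the spindle assembly factor TPX2 by 0.67. The centromere and kinetochore genes CENPF and CENPA differed by 0.79 and 0.41, and the kinases PLK1, AURKA and TTK by 0.50, 0.35 and 0.23. UBE2C, the ubiquitin-conjugating enzyme of the anaphase-promoting complex, ran the other way. It read 1.01 and 0.67 at day 4, 0.93 and 0.56 at day 7, and 0.89 and 1.85 at day 14, so its highest array was the beta-TCP array of day 14.

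The sign at day 4 rarely turned with the probe set, but the size did vary. Of 20 members with several probe sets above the filter, 19 had the same sign on all of them at day 4, and CDT1 alone did not. At day 7 the signs agreed in 13 of 20 and at day 14 in 12 of 20. At day 4, AURKA differed by 1.09 on its Cfa and 0.35 on its CfaAffx probe set, MCM7 by 1.08 and 0.43, and KIF23 by 0.78 and 0.068. The count of members at least 2-fold higher at day 4, which was 0, became 2 of 21 on Cfa alone, beside 312 of 5989 genes. It was 1 of 31 on CfaAffx alone (357 of 8289 genes) or with all probe sets of a gene averaged (265 of 9678). With a pseudocount of 0.25 it was 3 of 35, beside 989 of 10534 genes.

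The scaling moved the centre of all kept genes. With the arrays centred on the median of all kept genes, the median beta-TCP minus control difference of all kept genes went from 0.17 to -0.014 at day 4 and from -0.23 to 0.057 at day 14. At day 4, 29 of 35 members were then higher, beside 5153 of 10530 genes. There 1 of 35 members was at least 2-fold lower, beside 553 of 10530 genes.

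PCNA, the sliding clamp of DNA polymerases that also serves in DNA repair, was the 1 S phase member of 16 that was highest on the day 4 control array. It read 8.37 on the control and 7.49 on the beta-TCP array at day 4, 5.61 and 5.60 at day 7, and 5.53 and 3.11 at day 14. Its other probe set read 7.52 and 6.52, then 5.38 and 4.75, then 5.31 and 4.56. Both probe sets were thus highest on the 2 day 4 arrays and higher there in the control than with beta-TCP. AURKB, the kinase subunit of the chromosomal passenger complex, was also highest on the day 4 control array (4.21, against 3.87 with beta-TCP). Outside the set, so were other S phase genes, among them SLBP (6.02, against 5.06) and RFC2 (4.89, against 4.49).

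The inhibitor CDKN1A (p21), a CDK inhibitor that binds PCNA, was highest on the same array as PCNA. It read 8.23 on the control and 6.16 on the beta-TCP array at day 4, 6.83 and 5.53 at day 7, and 5.87 and 5.91 at day 14. Its 3 probe sets differed by -2.06, -1.80 and -2.05 at day 4. The day 4 control array was thus the highest of the 6 for PCNA, AURKB and CDKN1A, while for most replication and mitosis members the highest was the beta-TCP array of that day.

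**Figure D2:**
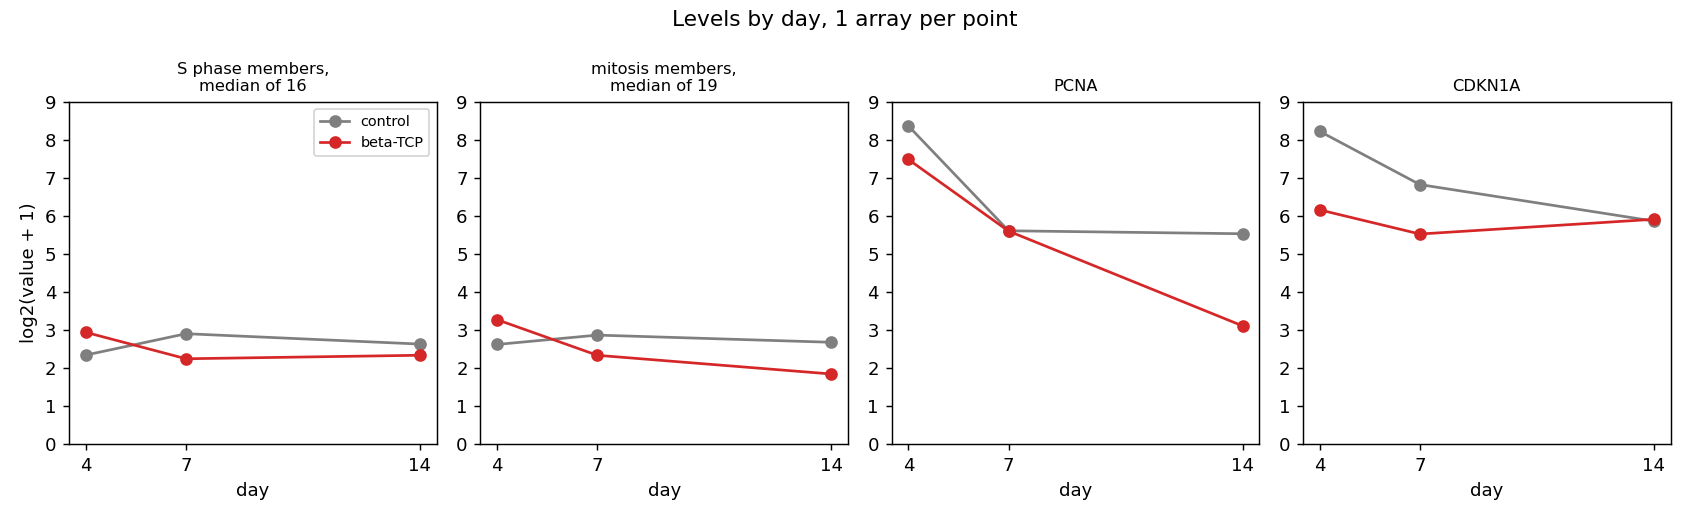
Levels as log2(value + 1) against day, for the median of the 16 S phase members, the median of the 19 mitosis members, PCNA and CDKN1A; grey is control, red beta-TCP, and each point is 1 array. Both medians are above control at day 4 (2.94 against 2.34, and 3.27 against 2.62) and below it at day 7, while PCNA and CDKN1A are highest on the day 4 control array.

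Other genes of the same processes, which are not members, were read beside the 62.7% of all kept genes that were higher at day 4. Of 46 other mitosis genes, 43 were higher with beta-TCP (median 0.51), and of 25 other S phase genes 19 were (median 0.40). Genes at least 2-fold higher included ASPM (1.16), the kinetochore gene NDC80 (1.13), the securin gene PTTG1 (1.09), POLD1 (1.46) and the clamp loader gene RFC4 (1.05). For POLD1 the other 2 probe sets gave 0.32 and -0.045. LMNB1, a nuclear lamin, was lower on both of its probe sets (-1.28 and -1.49). Among 9 genes that drive the G1 phase, MYC (1.34), CDK4 (1.11) and CCND3 (1.08) were at least 2-fold higher and CDK2 was lower (-1.07). Among 9 inhibitor genes CDKN1A (-2.06) and BTG2 (-1.28) were lower and CDKN2C (1.16) was higher, with a list median of -0.079.

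**Figure D3:**
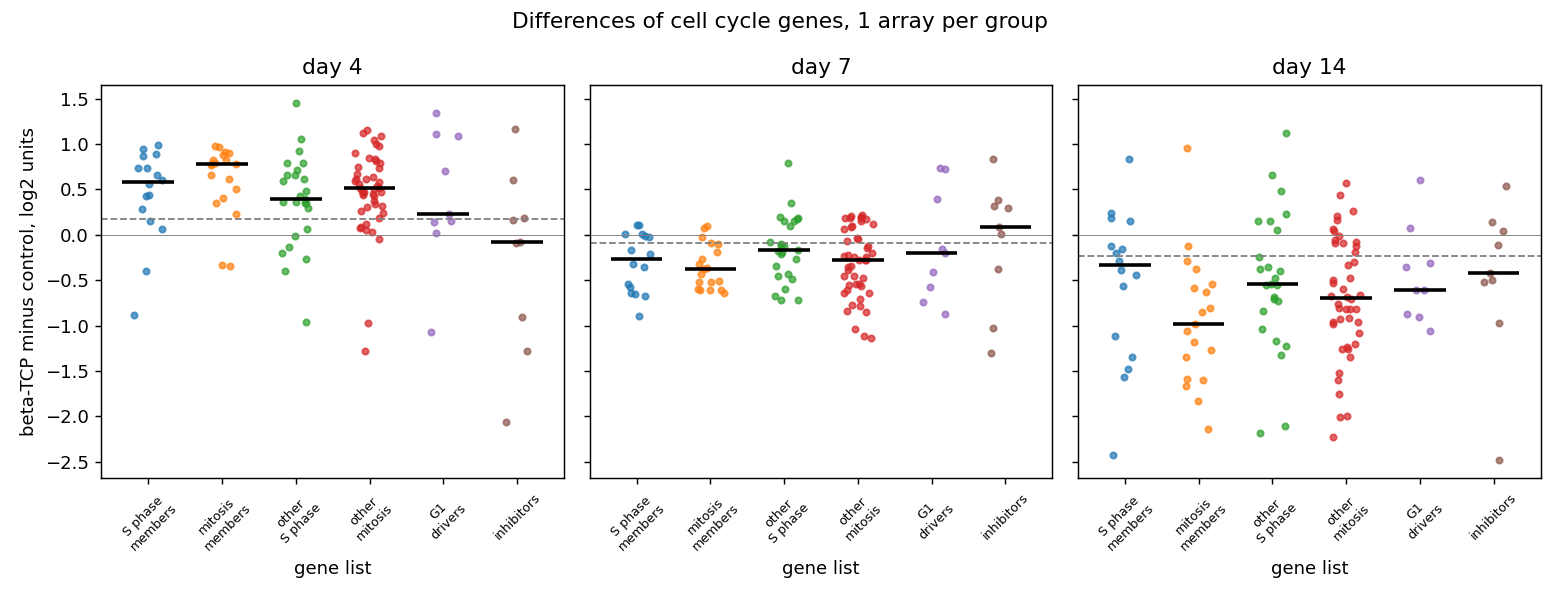
Difference of beta-TCP minus control in log2 units for each gene of 6 cell cycle lists at days 4, 7 and 14; each point is a gene, black bars are list medians and the dashed line is the median of all kept genes. At day 4 the S phase and mitosis members lie mostly above the dashed line (medians 0.58 and 0.78), and at day 14 the mitosis members lie mostly below it (median -0.99).

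Cell type markers also differed between the day 4 arrays. All 7 fibroblast markers were higher with beta-TCP (median 1.25), with a summed level of 1000 times the array median on the control and 1650 on the beta-TCP array. Endothelial markers were higher in 5 of 6 (summed level 72.4 and 158), and lymphoid and plasma cell markers in 5 of 6 measured (20.5 and 43.6). Bone markers were higher in 4 of 7 (1837 and 2029). Of these, IBSP (4.80 and 31.9) and ALPL (1.79 and 6.31) were at least 2-fold higher. Neutrophil markers were lower in 4 of 4 measured of 6 (871 and 501), and macrophage markers were higher in 2 of 6 (258 and 210). The epithelial markers KRTDAP, S100A14, LAMA3 and DSC2 were lower in 4 of 4, with a summed level of 144 on the control and 8.70 on the beta-TCP array. KRT5 and KRT14 had no probe set, and no measured marker was listed at 0 on these arrays. The part of any of these cell types in the cell cycle differences was not tested.

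At day 7 the order was turned. Of the 35 members, 29 were lower with beta-TCP, against 58.2% of all kept genes, and 26 lay below the median of all kept genes (-0.085). The medians were -0.26 for the S phase members (12 of 16 lower) and -0.38 for the mitosis members (17 of 19 lower). No member was at least 2-fold lower (3.44% of all kept genes were) or at least 2-fold higher (2.96%). After RRM2, the lowest were FEN1 (-0.68), MCM2 (-0.65), CENPA (-0.65) and MCM7 (-0.64). The other probe set of MCM7 gave 0.60. The highest was CCNE2 at 0.11. In the other lists, 34 of 46 mitosis genes and 17 of 25 S phase genes were lower, beside the 58.2% of all kept genes. MYBL2, which encodes B-MYB, was at -1.14 on one probe set and -1.25 on the other. The spindle gene TACC3 was at -1.12 and -1.27. KIF15 was at -1.03, but its other probe sets above the filter ran from -0.67 to 0.39. The inhibitor genes CDKN1A (-1.30) and CDKN2D (-1.02) were lower. Of the cell type lists, the endothelial markers were lower in 5 of 6 (summed level 362 and 259) and the macrophage markers in 5 of 6 (486 and 259). Neutrophil markers were lower in 3 of 4 (median -0.98, summed level 738 and 524). Lymphoid and plasma cell markers were higher in 1 of 6 (75.1 and 58.2). Bone markers went the other way, higher in 5 of 7 (2463 and 2566), with 3 at least 2-fold higher. These were ALPL (10.2 and 40.2), IBSP (55.3 and 251) and BGLAP (0.65 and 4.95). Fibroblast markers were higher in 5 of 7 (2175 and 2337), and epithelial markers in 2 of 4 (16.2 and 23.1). The part of these cell types in the day 7 differences was not tested.

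The comparison of days 4 and 7 within each treatment uses the same 4 arrays again, so that the beta-TCP day 4 array, for one, enters both kinds of difference. On the beta-TCP arrays 33 of 35 members were lower at day 7 than at day 4, against 44.9% of all kept genes. There 12 of 35 were at least 2-fold lower, against 2.58%. That count was 13 or 14 under the other scalings, beside 332 to 370 of all kept genes. It was 1 with a pseudocount of 16, beside 35 of 10528 genes. All 19 mitosis members were lower (median -0.91), led by CCNA2 (-1.85), a cyclin of S phase and G2, AURKA (-1.31) and CCNB2 (-1.22). The S phase members had a median of -0.49, with PCNA at -1.88. MCM7 (0.012) and CDT1 (0.32) were the 2 higher members, against 55.1% of all kept genes, and none was at least 2-fold higher (4.87%).

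On the control arrays the members showed no such shift. There 22 of 35 were higher at day 7 than at day 4, against 64.8% of all kept genes. The member median was 0.21 and that of all kept genes 0.27. MCM7 (1.08) was 1 of 35 at least 2-fold higher, against 15.9% of all kept genes. PCNA (-2.76) was 1 of 35 at least 2-fold lower, against 4.73%. With the arrays centred on the median of all kept genes, 13 of 35 were higher instead of 22, beside 5054 of 10530 genes. For control sites, the direction between these days therefore turned with the scaling, for members and for all kept genes.

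At day 14, 30 of 35 members were lower with beta-TCP, against 63.1% of all kept genes, and 14 of 35 were at least 2-fold lower, against 15.4%. No member was at least 2-fold higher (3.47% of all kept genes were). With centred arrays, 25 of 35 members were lower, 10 at least 2-fold lower and 2 at least 2-fold higher. Of all 10530 kept genes 4946 were then lower, 876 at least 2-fold lower and 831 at least 2-fold higher. With a pseudocount of 16, which shrinks differences of weakly read genes, 2 members were at least 2-fold lower, beside 253 of 10528 genes. The median was -0.33 for the S phase members and -0.99 for the mitosis members, beside -0.23 for all kept genes. The 9 mitosis members at least 2-fold lower were CCNA2 (-2.14), PRC1 (-1.83), CCNB2 (-1.66), TOP2A (-1.60), CDK1 (-1.59), CENPF (-1.34), KIF11 (-1.27), TTK (-1.18) and NUSAP1 (-1.06). The 5 S phase members were PCNA (-2.42), RRM2 (-1.57), MCM4 (-1.48), MCM2 (-1.34) and CDC6 (-1.12). The 5 higher members (36.8% of all kept genes were higher) were UBE2C (0.95), MCM3 (0.84), MCM5 (0.24), CCNE2 (0.18) and MCM7 (0.16). For several genes the beta-TCP array was near the bottom of its range. CCNA2 read 3.20 on the control and 1.06 on the beta-TCP array. PRC1 read 1.98 and 0.15, CENPF 1.56 and 0.22, MCM2 1.54 and 0.20, and CDC6 1.27 and 0.15.

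Day 14 was then read apart on both types of probe set, Cfa and CfaAffx, which are the prefixes of the probe set names. On Cfa probe sets, 24 of 29 members' probe sets were lower with a median of -0.56, and 6 were at least 2-fold lower (20.7%, against 14.9% of all Cfa probe sets above the filter). On CfaAffx probe sets, 25 of 31 were lower with a median of -0.99, and 15 were at least 2-fold lower (48.4%, against 21.4% of all CfaAffx probe sets). The medians of all probe sets above the filter were -0.22 for Cfa and -0.36 for CfaAffx, so the members lay below them by 0.34 and 0.63.

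In 17 members both types were above the filter. At day 14, 10 of the 17 were lower on both types, a share near the 52% of the 3748 genes read on both. None was higher on both, beside 422 of the 3748 genes. In the other 7 the signs were opposite, while 2371 of the 3748 genes had the same sign on both. CDK1 was at -1.59 on Cfa and -1.94 on CfaAffx, RRM2 at -1.57 and -1.90, and NUSAP1 at -1.06 and -1.22. These 3 were at least 2-fold lower on both. MCM6 was at -0.56 and -1.67, and PCNA at -0.75 and -2.42. PRC1 was at -1.83 on Cfa but at 0.50 on CfaAffx, and KIF23 at -0.85 and 0.21. MCM5 was at 0.24 on Cfa and -0.73 on CfaAffx, and MCM7 at -0.70 and 0.16. The median of CfaAffx minus Cfa was -0.48 over the 17 members and -0.40 over the 3748 genes. At day 4 it was -0.083 over the 17 members and -0.00021 over the 3748 genes. There 16 of the 17 had the same sign on both types, beside 2872 of the 3748 genes. Of these, 15 members were higher on both, beside 2102 of the 3748 genes.

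**Figure D4:**
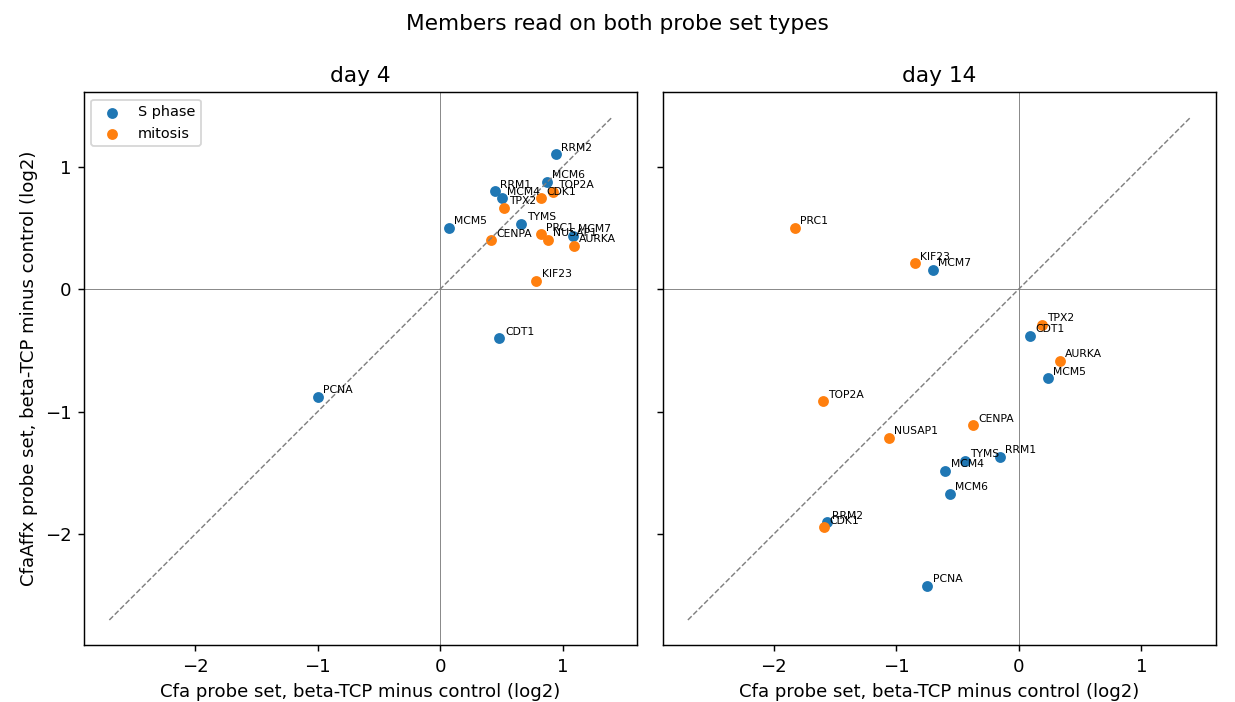
Beta-TCP minus control in log2 units on the CfaAffx probe set (vertical) against the Cfa probe set (horizontal) of the 17 members read on both, at day 4 and day 14; blue is S phase, orange mitosis, and the dashed line marks equal values. At day 4, 15 of 17 lie in the upper right, and at day 14 10 lie in the lower left and 13 below the dashed line.

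S phase and mitosis members were compared on each day through the difference of their medians (S phase minus mitosis). It was -0.20 at day 4, 0.11 at day 7 and 0.65 at day 14. At day 4 it was -0.24 on Cfa probe sets alone and -0.0069 on CfaAffx alone. At day 7 it turned to -0.17 on Cfa alone and was 0.15 on CfaAffx alone. At day 14 it was 0.34 on Cfa alone and turned to -0.17 on CfaAffx alone. There the S phase members had a median of -1.12 (15 genes) and the mitosis members of -0.95 (16 genes). At day 14, S phase and mitosis genes thus had no order that both types shared.

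Non-member genes at day 14 are read against the 63.1% of all kept genes that were lower and the 15.4% at least 2-fold lower. Of 46 other mitosis genes 39 were lower (median -0.69) and 12 at least 2-fold, led by NUF2 (-2.23), LMNB1 (-2.00) and PBK (-2.00). Of 25 other S phase genes 18 were lower (median -0.54), a share near that of all kept genes, with RFC4 at -2.18, GINS4 at -2.11 and GINS1 at -1.32. POLD1 was higher (1.12). The inhibitor CCNG2 was at -2.48 and MYC at -1.06, while CDKN1A did not separate the arrays (0.047). Among the cell type lists, the summed level on the control and beta-TCP arrays was 149 and 63.9 for neutrophil markers (1 of 4 higher). It was 20.5 and 11.8 for lymphoid and plasma cell markers (0 of 6 higher). For fibroblast markers it was 3580 and 3687, with 4 of 7 higher and DCN lower (798 and 380). For bone markers it was 2720 and 4670, with 4 of 7 higher. Most of that sum was COL1A1 (1270 and 2521) and COL1A2 (1230 and 1925), while SPP1 was lower (177 and 154). Macrophage markers had a median of -0.92, with 3 of 6 at least 2-fold lower, among them CD163 (49.5 and 11.4 times the array median) and MRC1 (40.8 and 12.3). The other direction was seen in 2 of 6, CD68 (70.5 and 214, at least 2-fold higher) and CD14 (15.4 and 16.3). The summed level of the macrophage markers was 210 and 269, and CD68 was the largest part of it on both arrays. Endothelial markers were higher in 5 of 6 (254 and 339). The part of these cell types in the day 14 differences was not tested.

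From day 7 to day 14 on the beta-TCP arrays, 25 of 35 members were lower, against 58.4% of all kept genes, and 9 were at least 2-fold lower, against 16.6%. UBE2C (1.29) was the 1 member at least 2-fold higher, against 4.82%. With centred arrays 17 of 35 were lower instead of 25, beside 4184 of 10530 genes. Of the members 4 were then at least 2-fold lower instead of 9, beside 857 of 10530 genes. Quantile normalization or division by the 90th percentile left 6 at least 2-fold lower, beside 1199 of 10525 and 1126 of 10514 genes. A pseudocount of 16 left 1, beside 159 of 10528 genes. On the control arrays 20 of 35 were lower (51.3% of all kept genes) and 15 higher (48.7%), and none was at least 2-fold lower (6.29%) or higher (4.19%). With centred arrays 16 of 35 were lower there, beside 4313 of 10530 genes. Day 14 and its scale of deposition cannot be told apart in these steps.

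One linear model with terms for day and for treatment was fitted over the 6 arrays (limma, two-sided, Benjamini-Hochberg adjusted p under 0.05 over 10530 genes). It tested the averages over days and treatments. For beta-TCP minus control it called 0 of 35 members, against 0% of all kept genes. At an unadjusted p under 0.05 it picked 513 of all kept genes and 1 member, PCNA (-1.10 ± 0.43, SE, 3 arrays a side, lower on 3 of 3 days, limma adjusted p = 0.865). The average runs over days of opposite sign for most members. TOP2A, for example, differed by 0.92, -0.27 and -1.60.

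Between days, PCNA was the 1 member called. It fell by 3.60 log2 units from day 4 to day 14 (SE 0.52, n = 2 arrays a day, limma adjusted p = 0.00417), lower on both treatments, beside 4.92% of all kept genes called. From day 4 to day 7 PCNA differed by -2.32 (SE 0.52, limma adjusted p = 0.0885), and 0 of 35 members passed, against 0.475% of all kept genes. At an unadjusted p under 0.05, 1 member passed there, against 12% of all kept genes. From day 4 to day 14, 5 members did, against 22.4%. From day 7 to day 14, 0 of 35 passed, against 0% of all kept genes, with 1 member at an unadjusted p under 0.05, against 9.73%. Without both day 14 arrays, PCNA (limma adjusted p = 4.89e-08) and CCNA2 (-1.17, limma adjusted p = 0.0142) passed from day 4 to day 7, beside 10.4% of all kept genes. That fit had 1 residual degree of freedom beside 171 prior ones, so the SE hardly varied between genes. Without the control day 14 array, day 14 was read from the beta-TCP array alone. Calls against day 14 then rose both among members and among all kept genes, and their counts are not read. Without both day 7 arrays, 3 members (CCNA2, CENPF and PCNA) passed from day 4 to day 14, beside 6.71% of all kept genes. The fit without day 7 also had 1 residual degree of freedom.

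The genes outside the set whose levels were most like the mean course of the members over the 6 arrays were the nucleoporin gene NUP107 (Pearson's r = 0.987), NCAPG2 of the condensin complex (0.986), the spindle pole gene ASPM (0.985), USP38 (0.984) and the clamp loader gene RFC5 (0.984). These values describe 6 arrays, each a single specimen, and the 1 probe set read for each gene. For USP38, beta-TCP minus control on that probe set was 0.61, -0.67 and -1.06 over the 3 days. Its other probe set gave 0.12, 0.18 and 0.016. At day 14 RFC5 was at -0.84, while its other probe sets, below the filter, gave 0.85 and 0.33. Within the set, the course of each gene was set against the mean of the other members in the same way. TOP2A (0.982), CCNA2 (0.963) and CDK1 (0.958) were closest. UBE2C (-0.761), CDT1 (-0.217), RRM1 (-0.149) and MCM7 (-0.144) were the 4 members with a negative value.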

How the data were processed

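One table of 42860 probe sets on 6 arrays was used. As read from the values, those the authors deposited for days 4 and 7 are a ratio to the median of each array, with a floor of 0.01. The day 14 values the authors deposited are an intensity that was not divided (median 12.0 for control, 6.2 for beta-TCP). The software is not given in the sources used here. A probe set table named 1 gene for 29254 probe sets, several for 439 and none for 13167. By gene ID, 31 of 35 members matched RefSeq (names only).

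Arrays were divided by their median before log2(value + 1) was taken. Left out were 180 probe sets in pairs that share a stem and end in _a_at and _at, none of them a member's. At least 2-fold means 1 log2 unit. The model used limma 3.58.1 in R 4.3.3, with 2 residual degrees of freedom that mix specimens and any joint effect of day and treatment. On simulated data with 10530 genes, beta-TCP minus control differences of 1, 2, 3 and 4 log2 units were called in 4%, 88%, 98% and 100% of cases. Members and lists were chosen with earlier results of these data known. All members were named or counted. Arrays were given in full for the 4 S phase and 4 mitosis members of highest mean, PCNA, and the extremes of each day. From each other list up to 3 genes a direction and day that reached 2-fold were named, and 5 genes most like the members. AURKB, CCNA2 and CDKN1A were described by array after their values were seen. The promoters and motifs of that rule were not analysed here. Alternatives were other scalings, pseudocounts, probe set rules and filters, and leaving out arrays.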

Additional observations from a re-analysis of the deposited data

Results flagged for a closer look

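The difference of beta-TCP minus control had opposite signs at day 4 and at the later days. For the S phase median, the day 7 difference minus the day 4 difference was -0.85 log2 units, and day 14 minus day 4 was -0.92. For the mitosis median the same values were -1.16 and -1.77. With 1 array per group these differences between days were not tested.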

How the results depend on the processing

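With 1 array per group, no alternative supplies a replicate. Specimens could not be paired by animal, because the sources used here do not say which of them shared an animal. The treatment term of the linear model compared arrays within each day. The medians of the S phase and the mitosis members kept their sign on each day in all 60 recomputed values. The share of S phase members higher at day 14 (25%) became 50% with centred arrays, beside 5584 of 10530 genes. It was 7.69% when all probe sets of a gene were averaged, beside 2949 of 9678 genes. With that average the share was 0% for mitosis members at day 14. For members with beta-TCP it was 0% from day 4 to 7 (4859 of 9678 genes) and 16.1% from day 7 to 14 (2919 of 9678). Cfa probe sets alone also gave 0% from day 4 to 7 with beta-TCP, beside 3551 of 5989 genes. Centred arrays turned the share from day 7 to 14 to 51.4%, beside 6346 of 10530 genes. On control arrays, the share higher at day 7 than at day 4 was 62.9%. It was 37.1% with centring (5054 of 10530 genes) and 42.9% with quantile normalization (5804 of 10525). With the 90th percentile it was 28.6% (4866 of 10514 genes) and with CfaAffx alone 45.2% (4613 of 8289).

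S phase minus mitosis at day 4 became -0.097 with quantile normalization, -0.13 with a pseudocount of 16, -0.10 with the mean of probe sets and -0.0069 with CfaAffx. At day 7 it was 0.21 with a pseudocount of 0.25, -0.013 with the mean of probe sets and -0.17 with Cfa. At day 14 it was 0.13 with a pseudocount of 16, 0.39 with the mean, 0.34 with Cfa and -0.17 with CfaAffx. The gap of CfaAffx minus Cfa at day 14 was -0.88 and -0.020 with pseudocounts of 0.25 and 16. PRC1 turned to 0.50 with CfaAffx alone.

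Members passing in limma's fit, of 35 or of 21 on Cfa alone, are given beside the share of all genes called. From day 4 to 7, 1 member (PCNA) passed with centring (0.969%), quantile normalization (1.09%), the 90th percentile (0.742%) or Cfa alone (1.77%). Without both day 14 arrays 2 passed (10.4%). From day 4 to 14, 2 passed with centring (8.35%) or Cfa alone (10.1%). There 3 passed with quantile normalization (8.03%), the 90th percentile (7.69%) or without both day 7 arrays (6.71%). With a pseudocount of 16 (0%) or no filter (0.318%) 0 passed. Leaving out 1 array gave 0 to 0 members for beta-TCP minus control, 0 to 2 from day 4 to 7, 1 to 15 from day 4 to 14 and 0 to 10 from day 7 to 14. The cause of these shifts was not tested. Each of these fits left 1 day with 1 array. The 2 from day 4 to 7 came beside 10.4% of all kept genes called. The 15 and the 10 came without the control day 14 array, where day 14 was read from the beta-TCP array alone. Calls against day 14 rose there among all kept genes as well, so the 15 and the 10 are not read. The lack of detection calls limits what can be said of members below the array median.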
